A study of Mus musculus with 6 samples.

Results

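The genes described here are 10 regulators of cell-cycle arrest, measured in RNA of cultured mouse cells labelled lung microvascular endothelial cells (LMVEC). *Cdkn1a*, *Cdkn1b*, *Cdkn2a*, *Cdkn2b* and *Cdkn2c* are the genes of cyclin-dependent kinase (CDK) inhibitors. The others are the p53 gene *Trp53* with its feedback genes *Mdm2* and *Ccng1*, and the cyclin D1 and RB genes *Ccnd1* and *Rb1*. All 10 were chosen by gene symbol. Each symbol matched 1 of the 21999 genes in the deposited table and passed the filter on low counts, which kept 13609 genes. *Mki67*, a gene read in dividing cells, was taken beside them as the measure of proliferation. There were 3 libraries of *Ptprz1*+/+ cells and 3 labelled *Ptprz1*-/-, all SV129/B6 and untreated, each from its own isolation with the lungs of 2 to 5 mice aged 3 to 8 weeks pooled. The lungs were digested with collagenase and the cells grown to confluence in serum with endothelial growth supplement and heparin, then separated on magnetic beads against CD31, the endothelial surface protein made from *Pecam1*. P-values measure the spread between these isolations, and the sex of the mice and the number of culture passages are not given in the sources used here.

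Between 14496881 and 17709663 reads were counted per library, and the members held between 283 and 9132 reads in any library. *Ptprz1* itself was read in every library, at 11.9, 101 and 32.1 CPM (counts scaled to the library size) in replicates 1, 2 and 3 of *Ptprz1*+/+ and at 70.6, 90.6 and 59.1 CPM in those labelled *Ptprz1*-/-, so each direction below rests on the labels. The 12 endothelial markers, none at 0 in any library, summed to 30.2 to 569 CPM in the *Ptprz1*+/+ isolations and 17.2 to 186 CPM in the others, with the highest sum of each genotype in replicate 3. The 10 fibroblast markers summed to 18379 to 26559 CPM and 11799 to 28077 CPM, and the 6 mesothelial markers to 55.8 to 217 CPM and 115 to 1380 CPM, the highest in the library labelled *Ptprz1*-/- replicate 1. The 5 leukocyte markers in the table summed to at most 49.9 CPM and the 7 epithelial markers to at most 3.78 CPM. The lowest fibroblast sum, 11799 CPM, lay above the highest endothelial sum, 569 CPM. The levels below therefore cannot be assigned to endothelial cells alone, whatever the label. A lower level of a gene in such bulk RNA cannot be told apart from fewer cells that express it.

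Progress from growth into DNA synthesis depends on CDKs, which are switched on by cyclins and held back by 2 classes of small inhibitor proteins. The INK4 class (*Cdkn2a*, *Cdkn2b*, *Cdkn2c*) binds the kinases CDK4 and CDK6 so that cyclin D1 cannot activate them, and the Cip/Kip class (*Cdkn1a*, *Cdkn1b*) binds assembled cyclin-CDK complexes. Active CDKs phosphorylate RB, which otherwise holds the E2F factors that turn on replication genes. The transcription factor p53 induces *Cdkn1a*, *Ccng1* and *Mdm2*, whose product in turn marks p53 for degradation. In cultured rodent cells the products of *Cdkn2a*, p16 and the p53-stabilizing ARF, are known to accumulate with time in culture and accompany senescence.

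Start-site sequences from RefSeq (GRCm38.p6) are shown because the members that lay opposite to *Mki67* in these libraries include genes that p53 is known to induce. Of the 10 members, 8 matched an entry, with 11 windows of 300 bases that run from 250 bases before a start to 50 after it, and *Ccnd1* and *Rb1* had none. A p53 half-site, searched by its consensus on both strands, lay in 4 of the 11 windows and in 8.36% of all 32851 windows. The capitals mark it, beginning 73 and 51 bases before a start in *Cdkn1a*, 186 in *Mdm2*, 185 in *Ccng1* and 75 in *Trp53*. The window at the other start of *Cdkn1a* (chr17:29093519-29093818) held none.
Cdkn1a, chr17:29090903-29090962, plus strand: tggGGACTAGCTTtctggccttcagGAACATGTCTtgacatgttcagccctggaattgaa
Mdm2, chr10:117710910-117710969, minus strand: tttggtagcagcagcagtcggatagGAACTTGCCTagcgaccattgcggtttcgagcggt
Ccng1, chr11:40755437-40755496, minus strand: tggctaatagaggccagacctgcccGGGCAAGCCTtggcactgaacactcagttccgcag
Trp53, chr11:69580259-69580318, plus strand: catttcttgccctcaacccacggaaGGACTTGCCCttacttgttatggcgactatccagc
A match is a description of letters and no evidence of binding in these cells.

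*Cdkn2a* has 2 start sites on chromosome 4, one for ARF and one for p16, and both are shown because the counts per gene hold the 2 transcripts together. E2F letters, TTTCCCGC, TTTGGCGC or TTTCGCGC on either strand, lay in 1 of the 11 member windows, that of ARF, 99 bases before its start (capitals), against 1.84% of all windows. The cell-cycle element CHR, TTTGAA on either strand, lay in 1 member window, that of *Cdkn2b*, against 17.9% of all windows, and was present in *Mki67* at 116 and 98 bases before the start.
Cdkn2a, ARF start, chr4:89294620-89294719, minus strand: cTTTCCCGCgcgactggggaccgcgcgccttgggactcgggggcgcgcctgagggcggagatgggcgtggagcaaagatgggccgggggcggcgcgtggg
Cdkn2a, p16 start, chr4:89282193-89282292, minus strand: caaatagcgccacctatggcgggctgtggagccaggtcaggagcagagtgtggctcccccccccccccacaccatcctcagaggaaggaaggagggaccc
Mki67, chr7:135716454-135716513, minus strand: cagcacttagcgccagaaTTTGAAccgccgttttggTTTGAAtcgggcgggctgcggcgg

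To order the members by abundance, levels were compared per gene length, as FPKM, over the 6 libraries. *Cdkn1a* had the highest mean, 144 ± 44.3 FPKM (SD, n = 6), then *Ccng1* with 134 ± 23.1 and *Cdkn2a* with 114 ± 44.1. *Cdkn1a* exceeded *Ccng1* in 3 of 6 libraries and *Ccng1* exceeded *Cdkn2a* in 5 of 6, so the order of the 3 was not fixed. All 3 lay above *Mdm2* (40.3 ± 6.34 FPKM) in each library, which *Cdkn2b* (38.2 ± 9.95) overlapped, with *Mdm2* the higher in 3 of 6. *Trp53* followed with 29.6 ± 4.01 FPKM, below *Cdkn2b* in 4 of 6 libraries, and exceeded *Cdkn1b* (20.4 ± 4.12) in 6 of 6. *Cdkn1b* exceeded *Ccnd1* (19.0 ± 10.1 FPKM), and *Ccnd1* exceeded *Cdkn2c* (15.9 ± 7.01), in 3 of 6 libraries each. *Rb1* was lowest in each library, at 4.42 ± 0.423 FPKM.

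**Figure D1:**
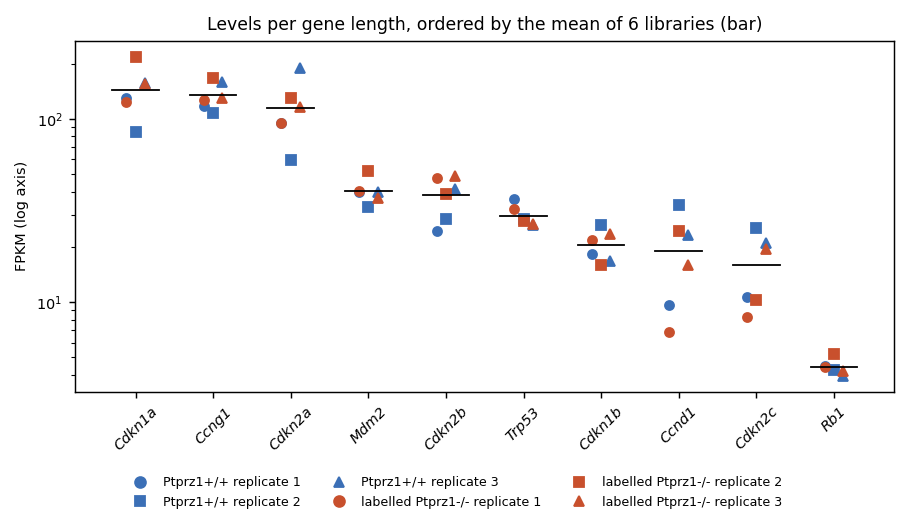
Level of each of the 10 genes in FPKM (the authors' values per gene length and library size, log axis) in each of the 6 libraries, ordered by the mean (bar). *Cdkn1a*, *Ccng1* and *Cdkn2a* stand above the others, *Rb1* below them, and *Ccnd1* ranges from 6.86 to 33.9 FPKM.

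The comparison of genotypes asked whether cells labelled *Ptprz1*-/- differed in these arrest genes. Of the 10 members, 5 had a positive and 5 a negative log2 fold change (labelled *Ptprz1*-/- minus *Ptprz1*+/+), with a median of 0.03 beside -0.005 over all genes tested. By edgeR's quasi-likelihood test 0 of 10 members and 0 of 13609 genes (0.0%) had an adjusted p under 0.05. At an unadjusted p under 0.05, 0 members stood beside 366 genes (2.69%). DESeq2 called 30 genes (0.22%) after adjustment and 494 (3.63%) before it, with 0 members in either count. The levels of the genotypes overlapped for all 10 members, where they did not for 991 genes (7.28%). Adjusted p-values of this comparison come from that edgeR fit, corrected by Benjamini-Hochberg over the 13609 genes, and were 1.00 for every member.

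**Figure D2:**
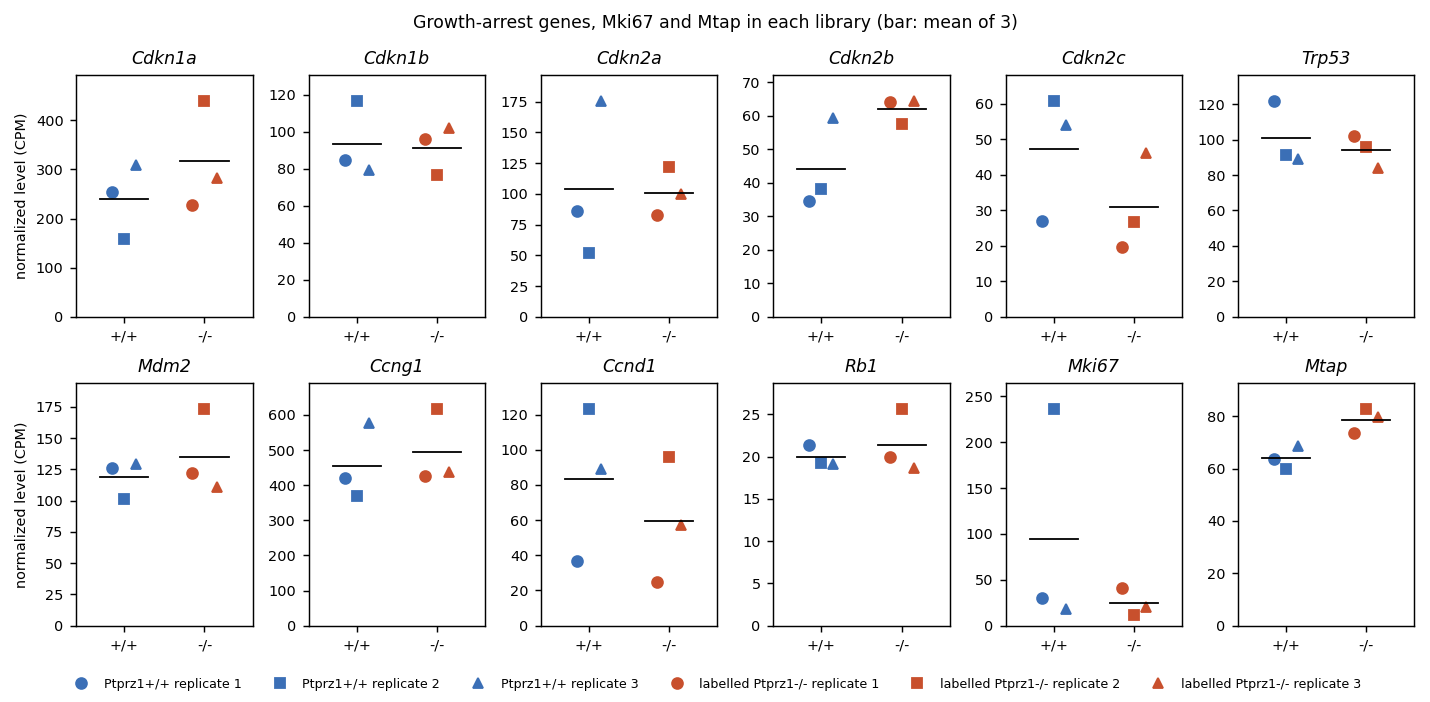
Normalized level in CPM, on linear axes from 0, of the 10 genes, *Mki67* and *Mtap* in each library (symbol: replicate number, bar: mean of 3). The genotypes overlap for each of the 10 genes, *Mki67* stands at 236 CPM in *Ptprz1*+/+ replicate 2, and *Mtap* is higher in each library labelled *Ptprz1*-/-.

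Of the INK4 inhibitors, *Cdkn2b* came nearest to a difference. *Cdkn2b* (chr4:89306289-89311032 of GRCm38), which encodes p15, was at 34.7, 38.2 and 59.5 CPM in replicates 1, 2 and 3 of *Ptprz1*+/+, and at 64.3, 57.6 and 64.6 CPM in the libraries labelled *Ptprz1*-/-. The *Ptprz1*+/+ value of replicate 3 lay within the other genotype, and the remaining *Ptprz1*+/+ values lay below it. The means were 44.1 ± 13.4 and 62.1 ± 3.96 CPM (SD, n = 3 each), a log2 fold change of 0.49 (SE, the standard error, 0.22, 95% interval -0.04 to 1.03, adjusted p = 1.00 by edgeR). Without *Ptprz1*+/+ replicate 3, the library with the highest endothelial sum, it was 0.77 (unadjusted p = 0.00206, adjusted p = 0.99, edgeR). That fit leaves out the *Ptprz1*+/+ value that lay within the other genotype, and 0.77 was the highest with 1 library left out. The lowest was 0.35, without *Ptprz1*+/+ replicate 1. With any other single library left out, the unadjusted p was 0.0882 to 0.169 (edgeR). The part of cell makeup in this was not tested.

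*Cdkn2a* (chr4:89274471-89294653), which lies beside *Cdkn2b*, did not share that pattern. It was at 86.1, 51.6 and 176 CPM in the *Ptprz1*+/+ isolations and at 82.5, 122 and 99.6 CPM in those labelled *Ptprz1*-/-. Its lowest and its highest value, 3.41-fold apart, were both *Ptprz1*+/+, and the log2 fold change was -0.04 (SE 0.44, 95% interval -1.09 to 1.01, adjusted p = 1.00 by edgeR). The direction turned to 0.56 without *Ptprz1*+/+ replicate 3. *Mtap*, a methionine salvage gene on the far side of *Cdkn2a* (chr4:89137122-89181081), was at 63.6, 59.8 and 68.8 CPM in the *Ptprz1*+/+ isolations and at 73.6, 82.7 and 79.9 CPM in the others. The genotypes of *Mtap* did not overlap, with a log2 fold change of 0.30 (SE 0.11, unadjusted p = 0.039, adjusted p = 1.00, edgeR), as for 483 genes (3.55%) with all 3 libraries labelled *Ptprz1*-/- above.

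The p18 gene *Cdkn2c* (chr4:109660876-109667189) was at 27.1, 60.9 and 53.9 CPM in the *Ptprz1*+/+ isolations and at 19.8, 26.7 and 46.2 CPM in those labelled *Ptprz1*-/-. *Ptprz1*+/+ replicate 1 lay close to the library labelled *Ptprz1*-/- replicate 2, so the genotypes overlapped, and the log2 fold change was -0.61 (SE 0.41, 95% interval -1.60 to 0.37, adjusted p = 1.00 by edgeR). It was -0.37 without the library labelled *Ptprz1*-/- replicate 1 and -0.39 without *Ptprz1*+/+ replicate 2 (unadjusted p = 0.417 and 0.426, edgeR), and -1.03 without the library labelled *Ptprz1*-/- replicate 3 (unadjusted p = 0.0427, adjusted p = 0.99, edgeR). The remaining INK4 gene, *Cdkn2d*, was at 15.6 to 31.9 CPM in the *Ptprz1*+/+ isolations and 17.8 to 22.4 CPM in the others.

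Among the Cip/Kip inhibitors, *Cdkn1a* (chr17:29090979-29100722), the p21 gene, was at 254, 158 and 308 CPM in the *Ptprz1*+/+ isolations and at 228, 440 and 282 CPM in those labelled *Ptprz1*-/-. The lowest value was *Ptprz1*+/+ replicate 2 and the highest the library labelled *Ptprz1*-/- replicate 2, and the other 4 lay between 228 and 308 CPM in both genotypes. The log2 fold change was 0.40 (SE 0.34, 95% interval -0.41 to 1.21, adjusted p = 1.00 by edgeR), and it was 0.17 without *Ptprz1*+/+ replicate 2 and 0.09 without the library labelled *Ptprz1*-/- replicate 2. *Cdkn1b* (chr6:134920401-134925513), the p27 gene, was placed the other way, highest in *Ptprz1*+/+ replicate 2 and lowest in the library labelled *Ptprz1*-/- replicate 2. It was at 84.8, 117 and 79.2 CPM in the *Ptprz1*+/+ isolations and at 96.1, 76.5 and 102 CPM in the others, a log2 fold change of -0.03 (SE 0.20). *Cdkn1c*, the p57 gene, was at 7.38 to 20.7 CPM in 5 libraries and at 92.2 CPM in the library labelled *Ptprz1*-/- replicate 3.

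The p53 gene *Trp53* (chr11:69580359-69591873) was at 122, 91.0 and 88.8 CPM in the *Ptprz1*+/+ isolations and at 102, 95.8 and 83.9 CPM in those labelled *Ptprz1*-/-. Its values spanned 1.46-fold, with a log2 fold change of -0.10 (SE 0.17, 95% interval -0.50 to 0.30, adjusted p = 1.00 by edgeR). *Mdm2* (chr10:117688888-117710758), the ubiquitin ligase gene that p53 induces, was at 126, 101 and 129 CPM and at 122, 173 and 111 CPM in the same order. It was lowest in *Ptprz1*+/+ replicate 2 and highest in the library labelled *Ptprz1*-/- replicate 2, with a log2 fold change of 0.18 (SE 0.21). *Ccng1* (chr11:40748552-40755311), the cyclin G1 gene and a p53 target, repeated that placing at 420, 368 and 576 CPM against 427, 616 and 437 CPM. The log2 fold change of *Ccng1* was 0.12 (SE 0.24), and it was -0.07 without the library labelled *Ptprz1*-/- replicate 2, as that of *Mdm2* was -0.03.

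*Ccnd1* (chr7:144929931-144939869), the cyclin D1 gene, varied most of the 10 members, by 4.98-fold between libraries. It was at 36.8, 123 and 89.3 CPM in the *Ptprz1*+/+ isolations and at 24.8, 96.1 and 57.2 CPM in those labelled *Ptprz1*-/-. In both genotypes replicate 1 was lowest and replicate 2 highest, and the log2 fold change was -0.49 (SE 0.59, 95% interval -1.90 to 0.93, adjusted p = 1.00 by edgeR). It was -0.09 without *Ptprz1*+/+ replicate 2, -0.84 without *Ptprz1*+/+ replicate 1, -0.11 when replicate 1 labelled *Ptprz1*-/- was left out, and -1.02 when replicate 2 so labelled was. *Rb1* (chr14:73183673-73325822) varied least, 1.37-fold, at 21.4, 19.3 and 19.1 CPM and at 19.9, 25.6 and 18.7 CPM, with a log2 fold change of 0.10 (SE 0.17, 95% interval -0.30 to 0.51). Exons of *Ccnd1* share 1100 bases with the antisense gene *LTO1* (282 to 380 reads), and those of *Rb1* share 488 bases with *Rcbtb2* and 408 with *Lpar6*. Exons of *Cdkn1a* share 273 bases with the antisense gene *AC167363.2*, which is not among the genes counted. The use of strand in counting is not given in the sources used here. The counts of *Ccnd1*, *Rb1* and *Cdkn1a* are therefore uncertain by reads of these neighbours. A transcript of *Trp53-ps*, also not among the genes counted, aligns with *Trp53* over 349 bases at 98.0% identity.

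**Figure D3:**
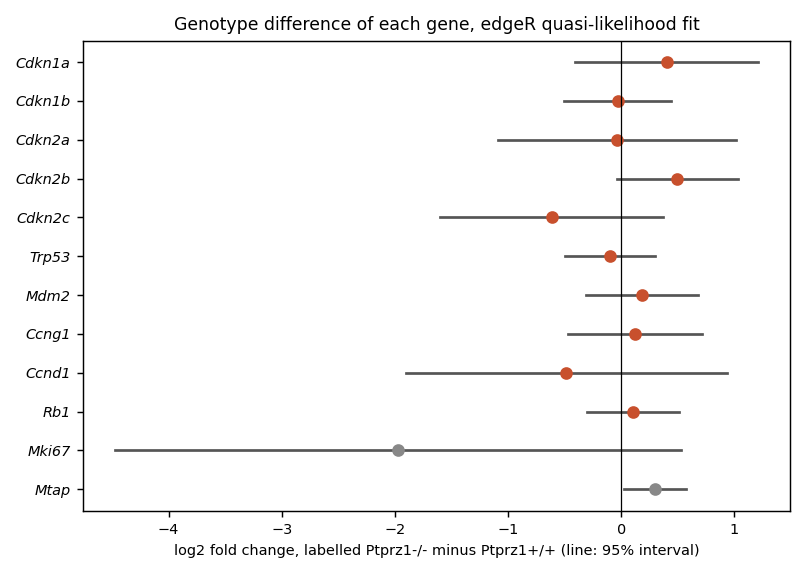
Log2 fold change (labelled *Ptprz1*-/- minus *Ptprz1*+/+) with its 95% interval from edgeR's quasi-likelihood fit for the 10 genes (orange) and for *Mki67* and *Mtap* (grey). The intervals of all 10 genes include 0, and that of *Rb1* (-0.30 to 0.51) is far narrower than that of *Ccnd1* (-1.90 to 0.93).

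Ratios within a library were taken to see whether paired members moved apart. The ratio of *Cdkn1a* to *Trp53* in CPM was 2.08, 1.73 and 3.47 in the *Ptprz1*+/+ libraries and 2.24, 4.60 and 3.36 in those labelled *Ptprz1*-/-. That of *Mdm2* to *Trp53* was 1.03, 1.11 and 1.46 against 1.20, 1.80 and 1.32, and that of *Cdkn2a* to *Cdkn2b* 2.48, 1.35 and 2.95 against 1.28, 2.12 and 1.54. The ratio of *Ccnd1*, which drives the cycle, to *Cdkn1b*, which restrains it, was 0.434, 1.05 and 1.13 against 0.258, 1.26 and 0.562. All 4 ratios overlapped. An exact permutation test, two-sided and over 20 splits, gave p = 0.3 for *Cdkn1a* to *Trp53* and for *Cdkn2a* to *Cdkn2b*, 0.4 for *Mdm2* to *Trp53* and 0.7 for *Ccnd1* to *Cdkn1b* (0.533, 0.533, 0.533 and 0.7 after Benjamini-Hochberg adjustment over the 4), and 3 libraries against 3 cannot go below 0.1.

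The libraries differed far more in *Mki67* than in any arrest gene. *Mki67* was at 30.4, 236 and 17.8 CPM in the *Ptprz1*+/+ isolations and at 40.7, 11.2 and 20.7 CPM in those labelled *Ptprz1*-/-, a 21.1-fold span. *Ptprz1*+/+ replicate 2 stood apart, and the other *Ptprz1*+/+ libraries lay within the range of the other genotype. The log2 fold change was -1.97 (SE 1.04, unadjusted p = 0.103, adjusted p = 1.00 by edgeR), with an unadjusted p of 0.0276 by DESeq2, and it was 0.01 without *Ptprz1*+/+ replicate 2.

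To relate arrest genes to proliferation, each member's log2 CPM was correlated with that of *Mki67* over the 6 libraries, giving 10 relations. At an exact permutation p under 0.05 for Pearson's r stood 4 of 10 members, beside 1933 of the 13608 other genes tested (14.2%), and after adjustment over those genes 0 members and 0 genes (0.0%) passed. Of the 4, *Cdkn1a*, *Cdkn2a* and *Ccng1* had a negative r and *Cdkn1b* a positive one. Such a p together with a negative r was held by 6.77% of genes, and together with a positive r by 7.44%. The relations share the same 6 libraries and are not independent of each other.

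*Cdkn1a* followed *Mki67* most closely, in the exact reverse order. From the library with the most to that with the least *Mki67*, 7.88, 5.35, 4.93, 4.38, 4.16 and 3.50 on the log2 CPM scale, *Cdkn1a* was at 7.30, 7.83, 7.99, 8.14, 8.27 and 8.78. Pearson's r was -0.95 (exact two-sided permutation p = 0.00139 over 720 pairings, adjusted over all genes 0.125) and Spearman's rho -1.0 (exact permutation p = 0.00278, adjusted 0.2, the smallest p that ranks of 6 libraries give). An r at or below that was held by 187 genes (1.37%), *Cdkn1a* included. Without the 2 libraries farthest from the *Mki67* median, the replicates 2 of both genotypes, r was -0.99 over 4 libraries. As deviations from the mean of each genotype, r was -0.93 (exact permutation p = 0.0278, the smallest of the 36 pairings within genotypes).

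*Cdkn2a* had r = -0.86 (exact permutation p = 0.0292, adjusted over all genes 0.292) and rho = -0.94 (exact permutation p = 0.0167, adjusted 0.309). It was -0.82 without the 2 farthest libraries and -0.68 without *Ptprz1*+/+ replicate 2 alone (exact permutation p = 0.208). Within genotypes it was -0.92 (exact permutation p = 0.0556). *Ccng1* had r = -0.82 (exact permutation p = 0.0167, adjusted 0.242) and rho = -0.94 (exact permutation p = 0.0167, adjusted 0.309). The r of *Ccng1* was -0.72 without the 2 farthest libraries and -0.82 within genotypes (exact permutation p = 0.139 for the latter). *Cdkn1b* lay with *Mki67*, at r = 0.84 (exact permutation p = 0.0236, adjusted 0.273) and rho = 0.83 (exact permutation p = 0.0583, adjusted 0.457). It dropped to 0.31 without the 2 farthest libraries, so that relation rests on them.

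*Mdm2* had r = -0.76 (exact permutation p = 0.113, adjusted 0.441) and rho = -0.83 (exact permutation p = 0.0583, adjusted 0.457), and 0.06 without the 2 farthest libraries. *Trp53* showed r = 0.00 and rho = 0.26, while *Cdkn2b* had r = -0.56 and rho = -0.20, and *Rb1* r = -0.44 and rho = -0.14 (exact permutation p from 0.254 to 1.00 for r and from 0.658 to 0.803 for rho, adjusted 0.567 or more). The relation of *Ccnd1* turned with 1 library. Over all 6 it had r = 0.17 (exact permutation p = 0.796, adjusted 0.924) and rho = -0.14 (exact permutation p = 0.803, adjusted 0.993). Without *Ptprz1*+/+ replicate 2, which was highest in both *Ccnd1* and *Mki67*, r was -0.96 over 5 libraries. As these same values singled out that library, the r without it is a description and no test. *Cdkn2c* likewise went from r = 0.37 (exact permutation p = 0.547, adjusted 0.798) and rho = 0.20 (exact permutation p = 0.714, adjusted 0.964) to r = -0.43 without that library.

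**Figure D4:**
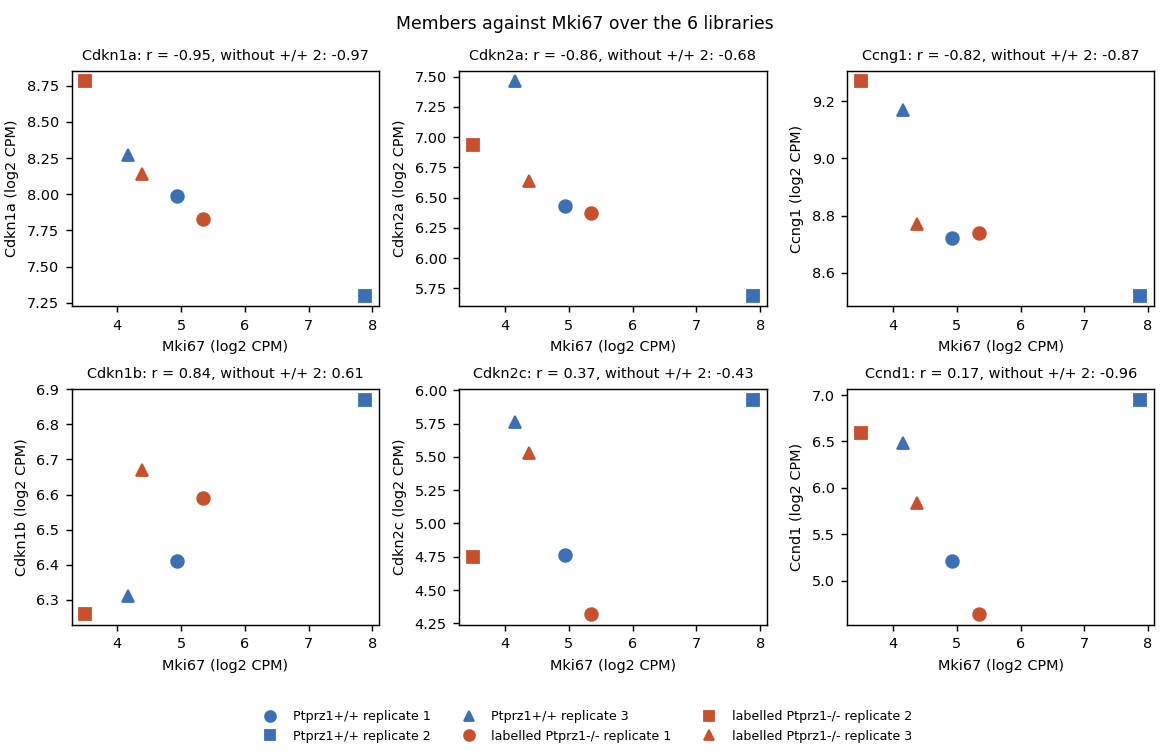
Log2 CPM of 6 members against log2 CPM of *Mki67* in the 6 libraries, with Pearson's r over all 6 and without *Ptprz1*+/+ replicate 2 above each panel. *Cdkn1a* declines at every step of *Mki67*, *Cdkn1b* is highest in the 1 library at the far right, and *Ccnd1* declines over 5 libraries with that library apart.

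The placing of the members within libraries ran through other genes of the pathways. *Ptprz1*+/+ replicate 2 held the lowest value of 4 members, *Cdkn1a*, *Cdkn2a*, *Mdm2* and *Ccng1*, and of 26.5% of all genes, and the library labelled *Ptprz1*-/- replicate 2 the highest value of 4, *Cdkn1a*, *Mdm2*, *Ccng1* and *Rb1*, and of 15.7% of all genes. Of 23 other p53 target genes, 17 were lowest in *Ptprz1*+/+ replicate 2 and 10 highest in the library labelled *Ptprz1*-/- replicate 2. Their median deviation from each gene's mean was -0.61 on the log2 scale in the former and 0.30 in the latter, and between -0.00 and 0.12 in the other 4. The 20 RB-E2F target genes and the 18 mitotic genes, which include *Mki67* itself, ran the other way. Of them, 19 of 20 and 18 of 18 were highest in *Ptprz1*+/+ replicate 2 (26.9% of all genes). Their median deviations there were 1.23 and 2.64, and in the library labelled *Ptprz1*-/- replicate 2 they were -0.47 and -1.24.

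**Figure D5:**
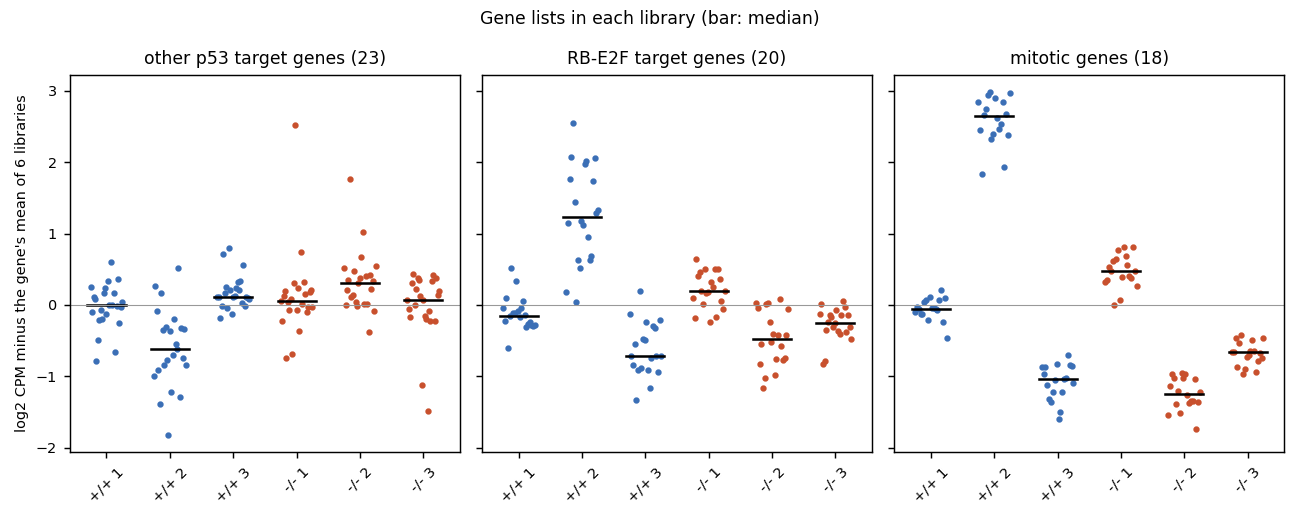
Deviation of each gene's log2 CPM from its mean over the 6 libraries (point: gene, bar: median). Panels hold 23 p53 target genes, 20 RB-E2F target genes and 18 mitotic genes, *Mki67* among the last. In *Ptprz1*+/+ replicate 2 the medians are -0.61, 1.23 and 2.64, the farthest from 0 of any library in each panel.

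Between the genotypes, 19 of the 23 other p53 target genes had a positive log2 fold change and 4 a negative one, with a median of 0.21 beside -0.005 over all genes. The median was 0.06 without *Ptprz1*+/+ replicate 2, in which 17 of the 23 were lowest, and 0.37 without *Ptprz1*+/+ replicate 3. By edgeR at an unadjusted p under 0.05, 2 were higher in the libraries labelled *Ptprz1*-/- (1.13% of all genes) and 0 lower (1.56% of all genes), and 0 passed after adjustment. *Trp53inp1*, a p53-induced gene of stress and autophagy, was at 109, 77.9 and 141 CPM in the *Ptprz1*+/+ isolations and at 148, 165 and 170 CPM in those labelled *Ptprz1*-/- (log2 fold change 0.56, SE 0.22, unadjusted p = 0.0444, edgeR). *Eda2r*, a receptor of the tumour necrosis factor family, was at 51.2, 30.0 and 51.9 CPM and at 56.8, 74.6 and 69.6 CPM (0.60, SE 0.24, unadjusted p = 0.0454, edgeR). *Bbc3*, which encodes the cell-death protein PUMA, was at 35.4, 17.7 and 33.0 CPM and at 38.2, 42.6 and 41.3 CPM (0.51, SE 0.26, unadjusted p = 0.101, edgeR). These 3 of 23 lay wholly above the *Ptprz1*+/+ libraries, as 3.55% of all genes did. *Perp*, at 0.44 to 2.24 CPM and at 0.793 to 11.3 CPM, overlapped.

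The genes that act on p53 did not move one way, with 4 of the 8 tested regulators positive and 4 negative and a median of 0.05. At an unadjusted p under 0.05 stood 0 of them by edgeR (2.69% of all genes) and 0 by DESeq2 (3.63% of all genes). The kinase genes *Chek1* and *Chek2*, which act in the DNA damage response, had log2 fold changes of -1.12 (SE 0.58) and -0.51 (0.40), *Atr* of 0.15 (0.15) and the phosphatase gene *Ppm1d* of 0.17 (0.21). Of the 12 other cyclins, CDKs, E2F factors and pocket proteins, 4 were positive and 8 negative with a median of -0.05. By edgeR 1 of the 12 had an unadjusted p under 0.05, beside 2.69% of all genes. It was *Ccne1*, the cyclin E1 gene that acts after cyclin D1, at 15.5, 16.8 and 14.6 CPM in the *Ptprz1*+/+ isolations and at 10.2, 10.8 and 9.78 CPM in those labelled *Ptprz1*-/-. The genotypes of *Ccne1* did not overlap, as for 508 genes (3.73%) with the libraries labelled *Ptprz1*-/- below, and the log2 fold change was -0.61 (SE 0.16, unadjusted p = 0.00704, adjusted p = 1.00, edgeR). *Rbl1*, the p107 relative of *Rb1*, had -0.74 (0.38), *E2f3* -0.17 (0.17) and *E2f4* 0.11 (0.14).

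The 20 RB-E2F targets had 1 positive and 19 negative log2 fold changes, with a median of -0.59. The 18 mitotic genes, *Mki67* among them, had 0 and 18, with a median of -1.60. Over all genes tested, 6685 were positive and 6924 negative. By edgeR, 0 of either list had an unadjusted p under 0.05, beside 2.69% of all genes. By DESeq2, 0 of the RB-E2F targets and 5 of the mitotic genes did, beside 3.63% of all genes in either direction. All 5, with *Mki67* among them, were lower in the libraries labelled *Ptprz1*-/-, and 0 passed after adjustment. Without *Ptprz1*+/+ replicate 2 the medians were 0.23 and 0.24. Examples from the replication genes were *Tyms* at 16.2, 49.0 and 17.2 CPM against 19.2, 14.8 and 16.1 CPM and *Ccna2* at 10.2, 67.2 and 4.48 CPM against 15.8, 5.01 and 8.92 CPM. *Mcm4* had a log2 fold change of -0.62 (SE 0.39) and *Mcm6* of -1.15 (0.79). Of the mitotic kinase and motor genes, *Aurkb* had -1.71 (0.85), *Bub1* -2.09 (1.08) and *Kif20a* -1.98 (1.05). The high values of these genes were those of the 1 library.

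Of 18 tested genes that are associated with senescence, 4 were positive and 14 negative, with a median of -0.66. At an unadjusted p under 0.05 stood 0 of them by edgeR (2.69% of all genes) and 1, *Il6*, by DESeq2 (3.63% of all genes). The cytokine gene *Il6* was at 25.1, 85.7 and 25.7 CPM in the *Ptprz1*+/+ isolations and at 5.33, 32.0 and 6.61 CPM in the others, highest in replicate 2 of each. *Plau*, a secreted protease gene, had a log2 fold change of -1.35 (SE 0.73) and the chemokine gene *Ccl7* of -0.88 (0.51). *Lmnb1*, the lamin B1 gene, which is known to decline in senescent cells, was at 39.1, 85.9 and 20.6 CPM and at 34.3, 20.3 and 24.6 CPM, highest again in *Ptprz1*+/+ replicate 2. The median of this list was 0.07 without that library. *Lmnb1*, with a log2 fold change of -0.88 (SE 0.51), is among the 14 negative genes. The count and the median therefore do not give a direction of senescence.

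For 3 members the genes with the most similar pattern were sought among the 9284 genes with a mean of at least 10 CPM, by Pearson's r of log2 CPM over the 6 libraries, as a description with no test. Nearest to *Cdkn1a* were *Pisd* (0.998), *Pik3ca* (0.992) and *Limch1* (0.990), and nearest to *Cdkn2a* were *Ikzf5* (0.993), *Cpq* (0.991) and *Aga* (0.989). *Ccnd1* was most like *Ndufa3* (0.988), *Trib2* (0.986) and *Gxylt1* (0.982). Of these, *Limch1* ranged from 11.4 CPM in *Ptprz1*+/+ replicate 2 to 102 CPM in the library labelled *Ptprz1*-/- replicate 2, and *Trib2* from 8.93 to 52.1 CPM.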

How the data were processed

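The authors deposited a count of reads per gene and library and FPKM values computed from the same counts, together with a gene length in bases. The submitters' processing notes name STAR, HTSeq, TopHat, DESeq2, edgeR, GRCm38 and mm10 without their roles, and the annotation release and use of strand are not given in the sources used here. Columns and lists that hold the authors' own fold changes and p-values were not used.

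Counts were scaled by TMM, and the genotypes compared in edgeR 4.0.16 under R 4.3.3 (filterByExpr, glmQLFit, glmQLFTest, genotype only) with Benjamini-Hochberg adjustment over 13609 genes and a threshold of 0.05. The functions were tested on simulated data. Log2 CPM used a prior count of 2. Alternatives were DESeq2 1.42.0, limma voom 3.58.1, other size factors, other filters, each library left out, and the replicate number as a block. Start-site windows were from RefSeq and exon overlaps from GENCODE. The members, the 13 gene lists, *Mki67* and the libraries left out were chosen with earlier results of these data known. P-values between genotypes and of relations over all 6 libraries were therefore adjusted over all genes tested, and those of the 4 ratios over the 4 ratios. P-values of relations within genotypes or with libraries left out carry no adjustment over all genes. Genes named with values were the members, *Mki67*, *Mtap*, *Ptprz1*, *Cdkn1c*, *Cdkn2d*, *Pecam1*, *Cdh5* and *Col1a1* (here only within their marker sums), from each list other than those of cell types the genes with an unadjusted p under 0.05, filled up to 4 by the next lowest p, and the 3 genes most like *Cdkn1a*, *Cdkn2a* and *Ccnd1*.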

Additional observations from a re-analysis of the deposited data

How the results depend on the processing

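The counts of called genes stayed at 0 in edgeR and voom under all settings, and DESeq2 called 30 genes, of which 0 were members. Genes with an unadjusted p under 0.05 numbered 553 without a filter and 312 to 676 with 1 library left out (366 with all), the most without *Ptprz1*+/+ replicate 1. With voom, 1 member (*Cdkn2b*) stood beside 342 genes at an unadjusted p under 0.05. Without the libraries of both genotypes that are richest in endothelial genes, 1 member (*Cdkn2b*) stood beside 257 genes by edgeR. With 1 library left out, 0 to 1 members had such a p, beside the 312 to 676 genes. In each of these fits 0 members passed after adjustment. The share of all genes tested was not computed for them, so these member counts have no background share.

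With replicate number as a block, 690 genes and 3 members (*Cdkn2b* 0.53, *Cdkn2c* -0.62, *Ccnd1* -0.52) had an unadjusted p under 0.05 by edgeR, and *Cdkn2a* was at 0.11. The adjusted p of these 3 members was 0.772 to 0.959 (edgeR), and the share of all genes was not computed here either. Deviations of same-numbered libraries correlated at 0.446, -0.0607 and 0.523 for replicates 1, 2 and 3. Those of differently numbered libraries correlated at -0.568 to 0.0923. Same-numbered libraries were thus more alike for replicates 1 and 3, and not for replicate 2. The sources used here state no pairing, so the main fit used genotype only and the block stayed an alternative.

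The log2 fold change of *Cdkn2a* was 0.11 with voom and 0.57 without both endothelial-rich libraries. With 1 library left out it ranged from -0.37 to 0.56 for *Cdkn2a*, -0.14 to 0.16 for *Cdkn1b* (0.08 without the library labelled *Ptprz1*-/- replicate 2, and 0.09 for *Cdkn2a* without its replicate 1), -0.18 to 0.07 for *Trp53*, -0.03 to 0.31 for *Mdm2*, -0.07 to 0.33 for *Ccng1* (-0.02 without *Ptprz1*+/+ replicate 2), -0.05 to 0.19 for *Rb1*, -1.02 to -0.09 for *Ccnd1*, -1.03 to -0.37 for *Cdkn2c*, 0.35 to 0.77 for *Cdkn2b*, 0.09 to 0.62 for *Cdkn1a* and -2.56 to 0.01 for *Mki67*. The cause was not tested.

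Median log2 fold changes with 1 library left out ranged from -0.06 to 0.16 for the members, -0.30 to 0.85 for *Cdkn1c* and *Cdkn2d*, 0.06 to 0.37 for other p53 target, -0.85 to 0.23 for RB-E2F target, -2.28 to 0.24 for mitotic, -0.94 to 0.07 for senescence-associated, -3.96 to 1.36 for endothelial, 0.36 to 3.22 for mesothelial and -1.26 to -0.46 for leukocyte genes. Without both endothelial-rich libraries they were 0.27 for the members, -0.34 for *Cdkn1c* and *Cdkn2d*, and -0.36 for leukocyte genes. The epithelial median was -1.15 without a filter and could not be had with at least 10 counts in every library.

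With 1 library left out, 1 to 3 members had an exact permutation p under 0.05 for the relation to *Mki67*. As deviations from genotype means 1 did, and with all 6 libraries 4 did, beside 14.2% of all genes. The share of all genes was not computed with 1 library left out or as deviations, so those counts have no background. Without the 2 farthest libraries r was -1.0 for *Cdkn2c*, 0.06 for *Mdm2*, -0.99 for *Ccnd1* and 0.63 for *Rb1*. With 1 library left out, r ranged from -0.43 to 0.57 for *Cdkn2c*, -0.13 to 0.49 for *Trp53* (-0.09, -0.02 and -0.01 in other fits, -0.13 as deviations), -0.96 to 0.41 for *Ccnd1* and -0.58 to 0.03 for *Rb1*.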
